A study of Mus musculus with 12 samples.

Results

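ETS proteins are transcription factors that share a DNA-binding domain, the ETS domain, and 8 of their genes were described here: Ets1, Ets2, Fli1, Erg, Etv6, Spi1, Elf1 and Gabpa. The members were the probe sets annotated to 1 of these genes alone. These were 18 of the 45101 probe sets on the array, and 8 of the 18194 genes that any single-gene probe set represents. Ets1 had 4 probe sets, Ets2 had 3, Spi1 had 1, and the other genes had 2 each. No probe set was shared between a member and another gene.

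The cells were I/11, a mouse line of immature erythroid progenitors derived from the fetal liver of p53-deficient mice. They were expanded in serum-free medium with erythropoietin, stem cell factor and dexamethasone, which all groups shared. All 3 lines had been infected with a lentiviral pLKO vector carrying puromycin resistance, with a scrambled hairpin (scr) or with a hairpin against Plcg1 (sh14 or sh133). Plcg1 encodes PLCγ1, an enzyme that growth factor receptors switch on to cut a membrane lipid into second messengers. Each line was sampled at 1, 6, 12 and 22 h and measured on 1 Affymetrix array per time, which gave 12 arrays. The event that starts the clock is not named in the labels, and neither is the number of cell clones in a line. The array titles carry 2 date strings, taken here as 2 array runs. Run 1 held every sh14 array and sh133 at 6 and 12 h. Run 2 held every scr array and sh133 at 1 and 22 h, so scr and sh14 never shared a run.

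Values are deposited log2 signals, and a difference of 1 is a doubling. The number of arrays limits their precision. With 1 array per line and time, p-values measure what is left after line, time and run are fitted, and not a spread between cultures. The run term rests on sh133 alone, so a run effect and a time course particular to sh133 cannot be told apart. Array medians were 1.84 to 1.92, and correlations between arrays 0.983 to 0.997. The targeted gene, Plcg1, had a mean ± SD over the 4 times of 4.53 ± 0.19 (scr), 4.15 ± 0.20 (sh14) and 4.41 ± 0.08 (sh133), and its knockdown difference of -0.24 ± 0.17 (SE) did not pass (limma adjusted p = 0.592). Of 10 erythroid markers, 9 were on the array as single-gene probe sets, and 8 were above the filter on dim genes. Hba-a1 was below it, and probe sets shared between the alpha globin genes were not used. Adgre1, Itgam, Mpo and Csf3r of the macrophage and granulocyte markers were below the filter, as were Cdh5, Pecam1 and Tek of the endothelial ones. In bulk RNA, fewer cells with a transcript and less of it per cell cannot be told apart.

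ETS proteins bind DNA at a GGAA core, and the bases around the core and the partner proteins differ among them. Spi1 encodes PU.1, which drives myeloid and B lymphoid development and is known to oppose GATA1 in erythroid cells. Fli1 and Erg act in stem cells and megakaryocytes, and Fli1 is known for opposing erythroid differentiation. Etv6 is a repressor needed by blood stem cells, and Gabpa encodes the DNA-binding subunit of GABP, which acts on many housekeeping and mitochondrial genes.

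RefSeq promoter windows of 300 bases were matched for 5 of the 8 members (Ets2, Etv6, Gabpa, Elf1 and Erg). The 250 bases upstream of the start are shown for Ets2 and Etv6, whose signals fell with time, and for Gabpa, whose change with time did not pass the test. Capitals mark GGAA, or TTCC where the core lies on the other strand (build GRCm38.p6, all on the plus strand: Ets2 at chr16:95702157-95702406, Etv6 at chr6:134035450-134035699, Gabpa at chr16:84834874-84835123).
Ets2: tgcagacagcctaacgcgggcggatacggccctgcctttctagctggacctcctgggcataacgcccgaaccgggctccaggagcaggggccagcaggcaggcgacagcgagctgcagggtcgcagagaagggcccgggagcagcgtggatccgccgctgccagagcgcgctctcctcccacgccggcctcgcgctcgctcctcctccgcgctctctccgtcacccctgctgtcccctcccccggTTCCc
Etv6: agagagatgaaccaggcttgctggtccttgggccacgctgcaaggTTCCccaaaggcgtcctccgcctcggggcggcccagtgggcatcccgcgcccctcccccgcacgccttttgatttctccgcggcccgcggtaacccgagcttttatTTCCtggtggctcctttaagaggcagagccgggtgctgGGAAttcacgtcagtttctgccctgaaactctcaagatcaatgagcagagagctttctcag
Gabpa: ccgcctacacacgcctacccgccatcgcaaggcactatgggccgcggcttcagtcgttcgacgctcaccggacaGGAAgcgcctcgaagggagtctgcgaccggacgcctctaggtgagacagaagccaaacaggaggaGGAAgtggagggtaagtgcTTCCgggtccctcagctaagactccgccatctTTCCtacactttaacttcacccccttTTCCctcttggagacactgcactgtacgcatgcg

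Over the whole 300-base windows, counted on both strands, GGAA occurred 1 time at Ets2, 6 times at Etv6 and 5 times at Gabpa. The Elf1 windows held 2 and 1, and the Erg windows 2, 4 and 1. Of all 32851 RefSeq windows of that length, 96% held at least 1 GGAA, with a median of 3. The longer motif CCGGAAGT, which contains GGAA, occurred in 0 of the 8 member windows and in 3.89% of all windows. A match shows the letters only, not a bound site.

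Over the time course, 4 of the 7 members tested fell between 1 and 22 h, namely Ets1, Ets2, Etv6 and Elf1, and 0 rose. Fli1, Spi1 and Gabpa did not pass the test, and Erg stayed under the filter. Of all 12673 genes tested, 18.1% were called in either direction and 9.34% were called lower. The median difference was -0.52 over the 7 members and 0.02 over all genes. Over the same interval, 6 of the 8 erythroid markers tested rose and 1, Kit, fell, and the part of that change in the ETS values was not tested.

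Ets1, the family's founding member, known mostly from lymphoid cells, fell most. Its brightest probe set gave log2 signals of 4.48, 4.05, 3.23 and 2.31 in scr at 1, 6, 12 and 22 h. In sh14 the signals were 6.16, 4.77, 4.42 and 3.57. In sh133 they were 5.54, 4.55, 4.06 and 3.26. Every step was downward in all 3 lines. At 22 h the linear signal was 22.2% of that at 1 h in scr, 16.6% in sh14 and 20.5% in sh133. The fitted difference was -2.35 ± 0.15 log2 (SE), a 5.09-fold fall (limma adjusted p = 1.36e-05). A second bright probe set gave 4.25, 3.73, 2.98 and 1.37 in scr, 5.81, 4.41, 4.22 and 3.19 in sh14, and 5.28, 4.31, 3.80 and 2.76 in sh133. Its difference was -2.67, with a limma adjusted p of 1.9e-05 over the 27061 probe sets, of which 14.9% were called. Its scr signal at 22 h was below the filter level of 1.45. The other 2 Ets1 probe sets were dim, at 1.61 to 2.64 and 1.55 to 2.29, and showed no such fall.

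Ets2, a close relative of Ets1 that is activated by RAS and MAP kinase signals, followed a shallower course. Its signals were 5.24, 4.81, 4.65 and 4.43 in scr, 4.23, 4.20, 4.05 and 3.28 in sh14, and 5.01, 4.55, 4.34 and 4.10 in sh133. Its brightest probe set too was lower at every later time than at the one before in all 3 lines, a course that 121 of the 12673 genes (0.955%) had. At 22 h it was at 57.1% of the 1 h signal in scr, 51.8% in sh14 and 53.2% in sh133. The fitted difference was -0.89 ± 0.12 (limma adjusted p = 0.000744). Its second probe set above the filter, at 1.95 to 2.58, did not fall at every step in any line and differed by -0.13 at 22 h (limma adjusted p = 0.464 over all probe sets). The remaining Ets2 probe set was below the filter, at 0.72 to 1.19.

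Etv6 gave 4.99, 4.58, 4.66 and 4.43 in scr, 5.70, 5.12, 5.14 and 5.04 in sh14, and 5.36, 4.81, 4.67 and 4.21 in sh133. Most of its fall lay between 1 and 6 h in scr and sh14, while sh133 went on falling to 44.8% of its 1 h signal. The difference over the lines was -0.79 ± 0.12 (limma adjusted p = 0.00168). Its second probe set, at 1.65 to 2.67, was not called.

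Elf1, an ETS factor expressed widely in blood cells, gave 6.88, 6.55, 6.48 and 6.19 in scr, 7.24, 6.86, 7.08 and 7.20 in sh14, and 7.05, 6.86, 6.88 and 6.37 in sh133. The 22 h signal was 61.8% of the 1 h signal in scr and 62.7% in sh133, but 97.3% in sh14. The fall of -0.47 ± 0.14 just passed (limma adjusted p = 0.0395). It no longer passed in 9 of the 12 fits that leave out an array (any scr or sh133 array, or sh14 at 12 h), where it ran from -0.67 to -0.34. With the mean over both Elf1 probe sets it was -0.15 (limma adjusted p = 0.274).

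**Figure D1:**
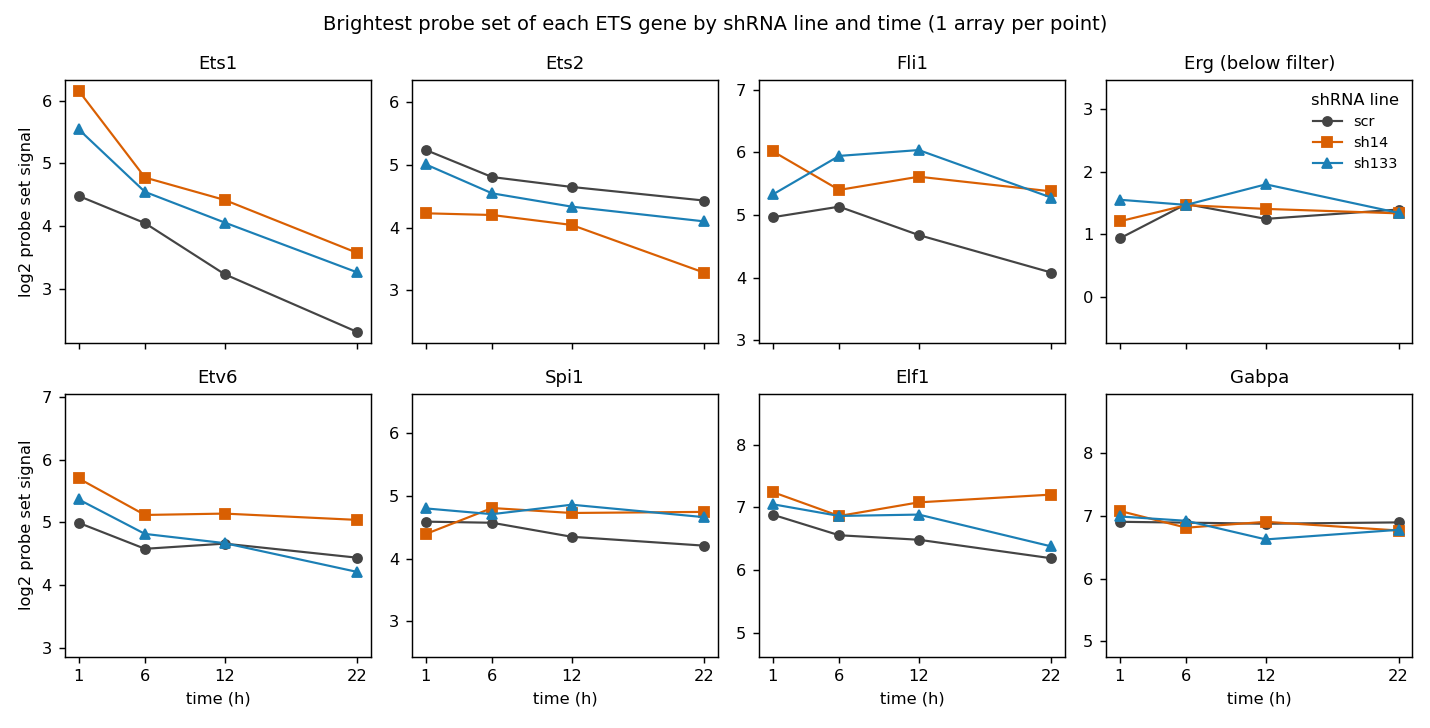
Log2 signal of the brightest probe set of each member (vertical axes) at 1, 6, 12 and 22 h (horizontal axes, hours), with 1 point per array and a line joining the arrays of scr, sh14 or sh133. Ets1 and Ets2 go down at every step in all 3 lines, Fli1 lies above scr in every hairpin array, and Erg stays between 0.94 and 1.80.

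Fli1, Spi1 and Gabpa did not share a course over the lines. Fli1 gave 4.97, 5.13, 4.68 and 4.08 in scr, 6.02, 5.40, 5.61 and 5.38 in sh14, and 5.33, 5.94, 6.04 and 5.28 in sh133. Its 22 h signal was 54.2% of the 1 h signal in scr and 96.6% in sh133, and the shared difference of -0.52 missed the threshold (limma adjusted p = 0.0892). Spi1 gave 4.59, 4.57, 4.35 and 4.21 in scr, 4.39, 4.81, 4.73 and 4.74 in sh14, and 4.80, 4.71, 4.86 and 4.66 in sh133. Its 22 h signal was 76.7% of the 1 h signal in scr and 128% in sh14, and the shared difference was -0.06 (limma adjusted p = 0.821, 95% interval -0.36 to 0.25). Gabpa was the flattest, at 6.91, 6.89, 6.88 and 6.90 in scr, 7.08, 6.81, 6.91 and 6.77 in sh14, and 6.99, 6.92, 6.63 and 6.78 in sh133, with a difference of -0.18 (limma adjusted p = 0.274).

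Erg, a close relative of Fli1, was not above the filter at log2 1.45. Its probe sets gave 0.94 to 1.80 and 0.68 to 1.23 over the 12 arrays, and every one of these values was below the lowest array median of 1.84. With no filter, its difference between 22 and 1 h was 0.13 (limma adjusted p = 0.632).

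**Figure D2:**
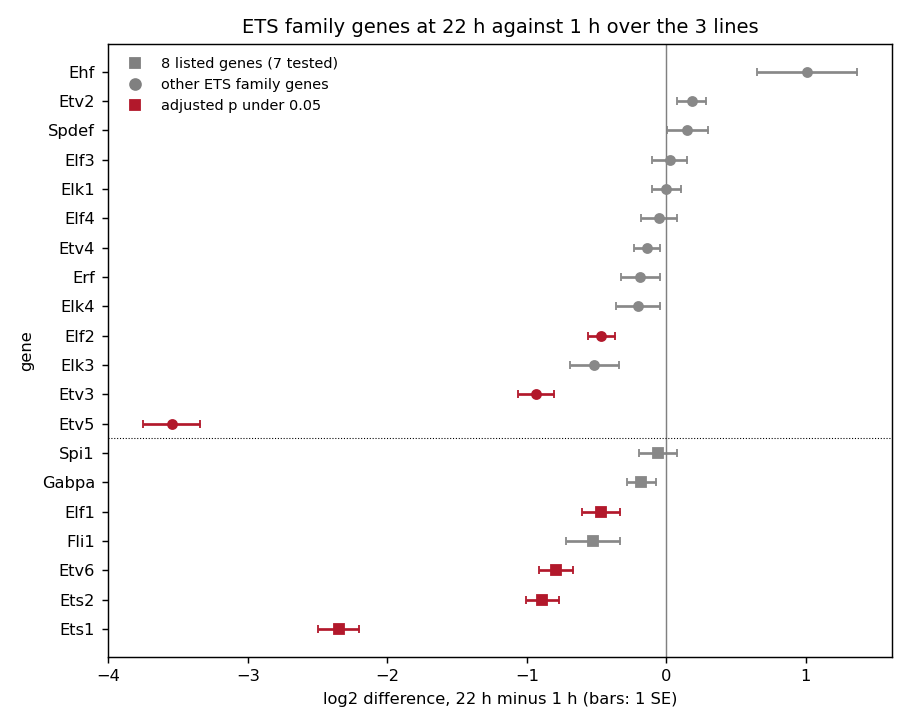
Fitted log2 difference between 22 and 1 h over the 3 lines (horizontal axis) for the 7 members tested (squares) and the 13 other ETS genes tested (circles), with bars of 1 SE and red for a limma adjusted p under 0.05. Every red point lies below 0, Ets1 at -2.35 among them, and the Etv5 point is drawn against 22 h signals below the filter level of 1.45, so its place shows no exact size.

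Among the other ETS genes, 16 of the 18 listed were on the array and 13 were tested. Of these, 3 fell between 1 and 22 h and 0 rose, beside 9.34% of all genes called lower. Etv5, a PEA3-group factor induced by growth factor signals, went from 4.82, 3.70 and 5.07 at 1 h in scr, sh14 and sh133 to 1.60, 1.67 and 1.61 at 6 h, 1.23, 0.97 and 1.43 at 12 h, and 1.10, 0.73 and 1.12 at 22 h. It passed as lower at 22 h (limma adjusted p = 8.73e-06), but its signals at 12 and 22 h were below the filter level of 1.45, so the fitted difference of -3.55 gives no exact size. The repressor Etv3 differed by -0.93 ± 0.13 (adjusted p = 0.000957) and Elf2, a relative of Elf1, by -0.47 ± 0.10 (adjusted p = 0.00893). The median over the 13 was -0.14. Counting members and other genes together, all ETS genes that passed in this comparison fell.

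The next comparison asked whether the ETS genes differ between the Plcg1 hairpin lines and scr. Ets1 was the one member of the 7 tested that passed, and it was higher in both hairpin lines. Of all genes tested, the combined fit called 2.18% in either direction and 1.14% as higher. For sh14 these shares of all genes were 3.06% and 1.5%, and for sh133 they were 4.91% and 2.45%. All hairpin comparisons share the same 4 scr arrays.

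At matched times Ets1 was 0.73 to 1.68 log2 above scr in sh14 and 0.50 to 1.06 above it in sh133, at 4 of 4 times in each. Over the whole course the ranges of the 3 lines overlapped. The fitted difference was 1.30 ± 0.26 for sh14 (2.47-fold, limma adjusted p = 0.0253), 0.88 ± 0.17 for sh133 (1.84-fold, adjusted p = 0.017) and 1.09 ± 0.20 for both (adjusted p = 0.0242). The second bright probe set gave 1.47 for sh14 (limma adjusted p = 0.0468) and 1.02 for sh133 (adjusted p = 0.026), in fits that called 1.56% and 3.19% of all probe sets. The 2 dim Ets1 probe sets did not pass. That at 1.61 to 2.64 was above scr at 1 of 4 times in sh14 and 2 of 4 in sh133. Its fitted differences were 0.20 and 0.32 (limma adjusted p = 0.85 and 0.537). That at 1.55 to 2.29 was above scr at 4 of 4 and 3 of 4 times. Its fitted differences were 0.42 and 0.15 (adjusted p = 0.393 and 0.666). In run 2 alone, where scr and sh133 share a run at 1 and 22 h, sh133 minus scr was 1.01 (limma adjusted p = 0.0131), in a fit of 4 arrays with 1 residual degree of freedom that called 2% of all genes.

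The Ets1 calls were near the threshold. Leaving out an array ended the combined call in 8 of 12 fits (scr at 1, 12 or 22 h, sh14 at 12 h, or any sh133 array), with values of 0.88 to 1.25. It ended the sh14 call in 7 of 12 (scr at 1 or 22 h, sh14 at 12 h, or any sh133 array), with 1.07 to 1.55, and the sh133 call in 3 of 12 (scr at 22 h, sh133 at 1 or 22 h), with 0.70 to 0.95. With the mean over its 4 probe sets Ets1 differed by 0.85 in sh14 (adjusted p = 0.0778) and by 0.72 in both (adjusted p = 0.0722).

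By its brightest probe set, Fli1 lay above scr at 4 of 4 times in both hairpin lines, by 0.27 to 1.30 in sh14 and 0.36 to 1.36 in sh133. Its lowest hairpin array, at 5.28, was above its highest scr array, at 5.13. Of all 12673 genes, 269 (2.12%) had every hairpin array above every scr array, and Fli1 was the 1 member among them. The fitted difference was 0.30 for sh14 (limma adjusted p = 0.734, 95% interval -0.45 to 1.04) and 0.64 for sh133 (adjusted p = 0.155, interval 0.14 to 1.13), and neither passed. The dimmer Fli1 probe set overlapped scr in sh14, at -0.06 to 0.28 from it at matched times, and was 0.09 to 0.71 above it in sh133. Its fitted differences of 0.21 and 0.34 did not pass (limma adjusted p = 0.767 and 0.337 over all probe sets). Without the run term the differences of the brightest probe set were 0.89 (limma adjusted p = 0.00539) and 0.93 (adjusted p = 0.00727), and within run 2 the sh133 difference was 0.78 (adjusted p = 0.105). No sh14 array shares a run with scr, so without that term line and run cannot be told apart in sh14. Dropping the term also raised the number of all genes called, with the counts given under the dependence on processing.

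By its brightest probe set, Ets2 differed in the other direction. Every sh14 array, at 3.28 to 4.23, was below every scr array, at 4.43 to 5.24, which held for 8.42% of all genes. The matched differences were -1.15 to -0.61 in sh14 and -0.33 to -0.23 in sh133. The fitted differences of -0.60 ± 0.21 for sh14 (limma adjusted p = 0.165) and -0.16 ± 0.14 for sh133 (adjusted p = 0.612) did not pass. Without the run term, where line and run cannot be told apart, the sh14 difference was -0.84 (limma adjusted p = 0.000209). The second Ets2 probe set above the filter differed by -0.46 to -0.13 in sh14 at matched times. In sh133 it differed by -0.19 to 0.21 and was above scr at 2 of 4 times. Its fitted differences of -0.36 and -0.05 did not pass (limma adjusted p = 0.413 and 0.898 over all probe sets).

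Etv6 in sh14, at 5.04 to 5.70, did not overlap scr, at 4.43 to 4.99. In sh133, at 4.21 to 5.36, it did. Arrays of sh14 lay wholly above scr for 9.24% of all genes, Fli1 and Etv6 among them. The Etv6 difference of 0.46 for sh14 did not pass with the run term (limma adjusted p = 0.303). It was 0.58 without that term (adjusted p = 0.00177), where line and run cannot be told apart. For sh133 the Etv6 difference with the run term was 0.04 (limma adjusted p = 0.936, interval -0.27 to 0.35). The second Etv6 probe set, at 1.65 to 2.67, did not separate the hairpin lines in this way. It was above scr at 4 of 4 times in both, by 0.25 to 0.84 in sh14 and 0.22 to 0.79 in sh133. Its fitted differences of 0.51 and 0.50 did not pass (limma adjusted p = 0.517 and 0.276 over all probe sets).

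Spi1 in sh133, at 4.66 to 4.86, did not overlap scr, at 4.21 to 4.59, which held for 6.3% of all genes, but its difference of 0.37 ± 0.16 did not pass (limma adjusted p = 0.254). In sh14 it was below scr at 1 h and above it at the other 3 times. By its brightest probe set, Elf1 was above scr at 4 of 4 times in both hairpin lines, and reached a difference of 1.02 in sh14 at 22 h. Ets1, Fli1 and Elf1 shared this position above scr at every time in both lines with 6.81% of all genes. The second Elf1 probe set was above scr at 3 of 4 times in sh14 and 2 of 4 in sh133, and differed by -0.16 in sh14 at 22 h. For the brightest probe set the fit gave 0.28 in sh14 (limma adjusted p = 0.636) and 0.12 in sh133 (adjusted p = 0.771). Without the run term, where line and run cannot be told apart, the Elf1 value in sh14 was 0.57 (limma adjusted p = 0.00615). Gabpa differed by 0.07 in sh14 (interval -0.33 to 0.47) and by -0.03 in sh133 (interval -0.29 to 0.24). The second Gabpa probe set was above scr in sh14 at 4 of 4 times, by 0.25 to 0.33, and in sh133 at 2 of 4. Its fitted differences of 0.08 and -0.19 did not pass (limma adjusted p = 0.878 and 0.442 over all probe sets). With no filter Erg differed by 0.08 in sh14 (adjusted p = 0.933) and by 0.27 in sh133 (adjusted p = 0.486).

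**Figure D3:**
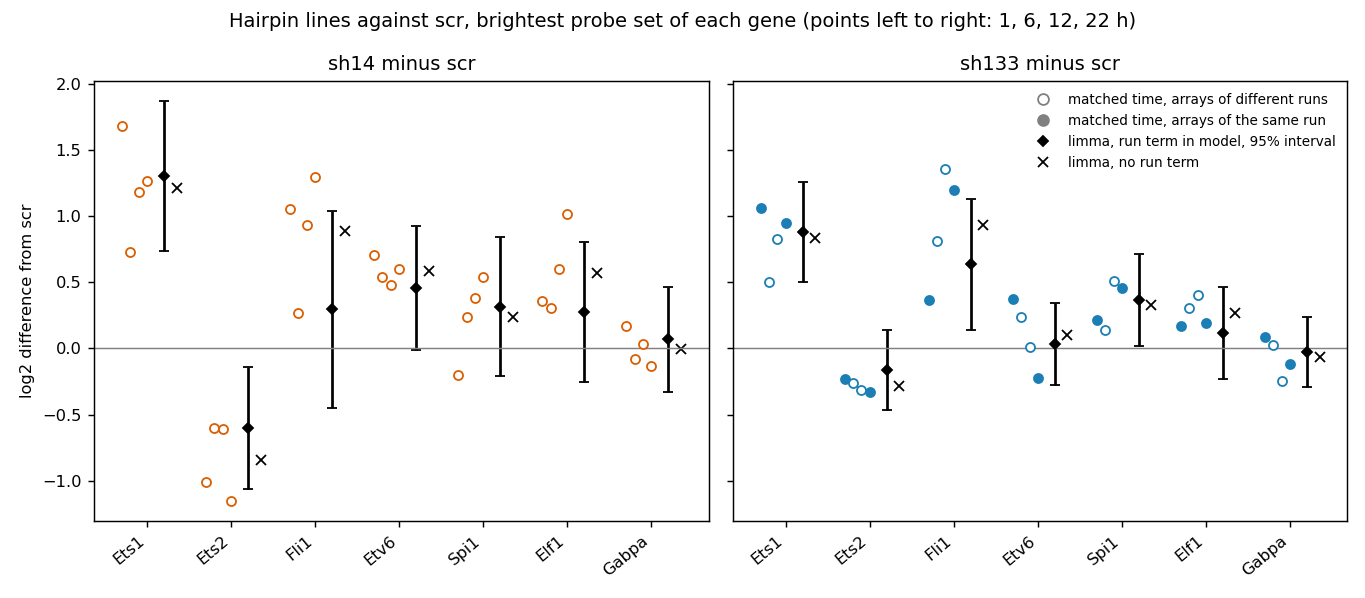
Log2 differences from scr (vertical axis) of the 7 members tested (horizontal axis), in sh14 (left) and sh133 (right), as circles for the matched times (1, 6, 12 and 22 h from left to right, filled where both arrays share a run), diamonds with 95% confidence intervals for the limma fit, and crosses for the fit without the run term. Ets1 is the 1 gene whose interval lies above 0 in both lines, and the Ets2 circles lie below 0 at every time.

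Several measures moved with the lines. The mean log2 signal of 7 mast cell markers on an array was 2.56 to 3.08 in scr, 3.33 to 3.83 in sh14 and 2.31 to 2.85 in sh133. In sh14 Fcer1a, Ms4a2, Cpa3 and Mitf were above scr at every time, while Hdc and Cma1 were below it. The mean of the 6 megakaryocyte markers on the array was 2.66 to 2.93 in scr, 3.20 to 3.82 in sh14 and 3.01 to 3.67 in sh133. Its genes differed unequally. In scr, sh14 and sh133, Pf4 averaged 4.06, 5.12 and 6.86 and Vwf 1.21, 2.19 and 1.28. Gp9 averaged 2.53, 2.61 and 2.69, and Gp1bb 2.44, 2.46 and 2.52. The 8 macrophage and granulocyte markers were at 1.52 to 1.61, 1.60 to 1.79 and 1.51 to 1.69. B cell markers were at 1.34 to 1.62 in all lines, T cell markers at 1.57 to 1.81 and endothelial markers at 1.34 to 1.57. The excess of the 3' over the 5' actin probe set, which follows RNA integrity, was 0.55 to 0.63 in scr, 0.51 to 0.58 in sh14 and 0.34 to 0.53 in sh133. The part of these measures in the Ets1, Fli1 and Ets2 differences was not tested.

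Between the hairpin lines, 14.6% of all genes were called and 0 of the 7 members passed in limma, with 3 (Ets1, Ets2 and Etv6) at an unadjusted p under 0.05. Ets1 was higher in sh14 than in sh133 at 4 of 4 times, by 0.23 to 0.62, with a fitted difference of 0.42 (adjusted p = 0.132). Ets2 was lower in sh14 at 4 of 4 times and differed by -0.44 ± 0.14 (adjusted p = 0.0591). Etv6 was higher in sh14 at 4 of 4 times and differed by 0.42 ± 0.14 (adjusted p = 0.0708). Its second probe set was higher in sh14 at 2 of 4 times and differed by 0.01 (limma adjusted p = 0.985 over all probe sets). Fli1 was the reverse of Ets1 at 2 of 4 times. Within run 1, at 6 and 12 h, its sh14 minus sh133 difference was -0.48 (limma adjusted p = 0.025), in a fit of 4 arrays with 1 residual degree of freedom that called 18.7% of all genes. Over all times it was -0.34 (adjusted p = 0.369). The 95% intervals were -0.40 to 0.30 for Spi1, -0.19 to 0.51 for Elf1 and -0.17 to 0.36 for Gabpa. The second Gabpa probe set was higher in sh14 at 4 of 4 times, by 0.25 to 0.59. Its fitted difference of 0.27 did not pass (limma adjusted p = 0.145 over all probe sets).

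The slopes over time were compared next, as the mean hairpin slope minus the scr slope in log2 units per doubling of hours. In limma 0 of 7 members and 0.379% of all genes passed, with Etv6 and Spi1 at an unadjusted p under 0.05. The Spi1 difference in slope was 0.12 (adjusted p = 0.182), that of Etv6 was -0.09 (adjusted p = 0.228) and that of Ets1 was -0.06 (adjusted p = 0.637). The Ets1 fall was thus not shown to differ in steepness between the lines.

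Of the 13 other ETS genes tested, 1 passed against scr, where 4.91% of all genes passed in sh133 and 3.06% in sh14. Elk3, a ternary complex factor that works with SRF, gave 1.73, 1.76, 1.10 and 1.08 in scr, 2.16, 2.42, 2.47 and 1.72 in sh14, and 2.75, 3.02, 2.12 and 2.30 in sh133. Its scr signals at 12 and 22 h were below the filter level of 1.45, as was its scr mean of 1.41. The means of 2.19 in sh14 and 2.55 in sh133 carried it over the filter, so filter and call are not independent. It passed as higher in sh133 (limma adjusted p = 0.00758) and not in sh14 (adjusted p = 0.119). The fitted differences of 1.24 and 1.00 give no exact size.

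Position on the chromosome was examined because Ets1 and Fli1 lie next to each other on chromosome 9, with no protein-coding gene between them, as Ets2 and Erg do on chromosome 16 (order from RefSeq). Among the 10 nearest tested genes of Ets1, 5 on each side, the median difference from scr was 0.09 in sh14 and 0.00 in sh133, and 0 of 10 were called in either. Around Ets2 the medians were -0.02 and -0.08, and again 0 were called. Of all genes, 3.06% were called in sh14 and 4.91% in sh133, so 0 of 10 is near the share of all genes at both places. Around Etv6 on chromosome 6, the 10 neighbours had a median of 0.44 in sh14, beside 0.46 for Etv6 itself, and 0.08 in sh133. Between sh14 and sh133, where 14.6% of all genes passed in either direction, 5 of these 10 passed, all higher in sh14. They were Cd69 (1.63), Lrp6 (0.65), Gabarapl1 (0.64), Borcs5 (0.57) and Ybx3 (0.44). The neighbours were singled out by position and not by function, and what moves with this stretch in sh14 was not tested.

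**Figure D4:**
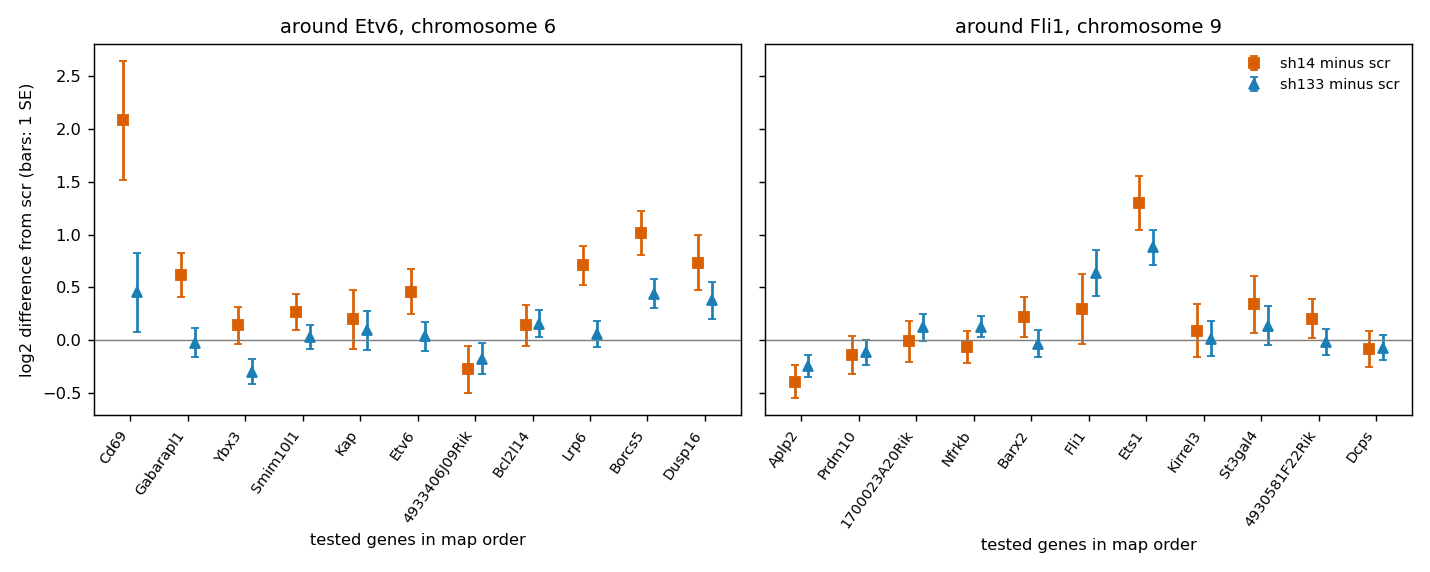
Fitted log2 differences from scr (vertical axis, bars of 1 SE) of Etv6 (left) and of Fli1 (right) with their 5 nearest tested genes on each side in map order (horizontal axis), as squares for sh14 and triangles for sh133. Etv6 in sh14 lies at 0.46 among neighbours with a median of 0.44, and Ets1, next to Fli1, is the highest of its row in both lines.

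The genes whose signals were most like a member's over the 12 arrays were taken by Pearson r among 12672 others. The arrays share line, time and run, and each r is a description. Nearest to Ets1 were Slco3a1 (r = 0.956), Msn (0.945) and Vmn2r84 (0.942). Nearest to Ets2 were Pmp22 (0.980), Socs6 (0.960) and Mt2 (0.949). Those of Fli1 were Mthfd2l (0.917), Chm (0.917) and Ikzf2 (0.915), and those of Etv6 were Lat (0.965), Tespa1 (0.948) and Vmn2r84 (0.946). For Spi1 they were Crebzf (0.896), Norad (0.895) and Zfp830 (0.889), and for Elf1 Jmjd1c (0.945), Fbxw11 (0.939) and B3gnt2 (0.929). Gabpa, the flattest member, had Strbp (0.901), Hmox2 (0.865) and Cxcl10 (0.847). Among the members, r was 0.86 for Etv6 with Ets1 and with Elf1, and 0.68 for Ets1 with Fli1. Ets2 stood apart, with r between -0.26 and 0.38 to the others.

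Transcripts of genes whose products act with ETS factors moved in both directions over time. Of 14 partner genes tested, 4 rose between 1 and 22 h and 3 fell, beside 18.1% of all genes called in either direction. The erythroid factors Tal1 (0.80), Gata1 (0.74), Lmo2 (0.40) and Gfi1b (0.39) rose. Cbfb, the subunit that stabilises RUNX proteins on DNA, fell by 1.43, Srf fell by 1.25 and Gata2 fell by 0.43 (limma adjusted p from 1.83e-05 to 0.0488). Against scr, Gata2 was higher by 1.53 ± 0.23 in sh14 (limma adjusted p = 0.00708), and by 0.53 in sh133, which did not pass (adjusted p = 0.0776). Cbfb differed from scr by nearly the same amount in both lines. It was higher by 0.61 ± 0.11 in sh133 (adjusted p = 0.0124) and by 0.63 ± 0.17 in sh14, which did not pass (adjusted p = 0.0794). The combined fit called both Gata2 and Cbfb (adjusted p = 0.019 and 0.0417). Gata2 was also 0.99 higher in sh14 than in sh133 (adjusted p = 0.00224), and Gabpb2, a beta subunit of GABP, was 0.47 lower in sh14 (-0.47, adjusted p = 0.0203). Runx1 was higher by 0.69 ± 0.25 in sh14 (limma adjusted p = 0.195) and by 0.59 ± 0.17 in sh133 (adjusted p = 0.0808), and neither passed. Jun and the other partners tested did not pass against scr. In each hairpin line 4 of the 14 had an unadjusted p under 0.05. These were Runx1, Cbfb and Gata2 in both, with Gabpb2 in sh14 and Tal1 in sh133.

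Known targets of these factors did not move as 1 group. Over all genes, 2.45% were called higher in sh133 than in scr and 1.5% in sh14, and 4.91% and 3.06% in either direction. At these shares, 0 calls in a list this short is near what all genes show. Of 11 PU.1 target genes tested, 2 were higher in sh133 than in scr and 0 in sh14 (4 at an unadjusted p under 0.05 in each). Those called in sh133 were Ncf4, a subunit of the phagocyte oxidase (1.33 ± 0.18, limma adjusted p = 0.00301), and the Fc receptor gene Fcgr1 (0.68 ± 0.14, adjusted p = 0.0231). In sh14 Ncf4 differed by 0.58 (adjusted p = 0.319). Fcgr1 differed there by 0.71 ± 0.21 (adjusted p = 0.113), no less than in sh133. Over time Ncf4 and Lyz2 rose and Fcgr1 and Fcgr3 fell. Of 8 megakaryocyte target genes, Itga2b, the integrin subunit CD41, was higher in sh14 (1.85 ± 0.36, adjusted p = 0.0243), and Pf4, a platelet chemokine, was higher in sh133 (2.21 ± 0.50, adjusted p = 0.033). Between the hairpin lines they went in opposite directions, with sh14 minus sh133 differences of 1.46 for Itga2b (adjusted p = 0.00316) and -2.34 for Pf4 (adjusted p = 0.0117). Of 13 GABP target genes, Polrmt and Tfb1m, of the mitochondrial transcription machinery, were lower in sh133, by -0.51 and -0.48 (adjusted p = 0.0205 and 0.0233), and 0 were called in sh14 (1 at an unadjusted p under 0.05). In sh14 Polrmt differed by -0.47 ± 0.16 (limma adjusted p = 0.151), close to its sh133 value, and Tfb1m by -0.22 (adjusted p = 0.53). The median difference of the list from scr was -0.01 in sh14 and 0.03 in sh133, beside 0.02 and 0.01 over all genes.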

How the data were processed

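Total RNA of 12 I/11 samples was amplified, biotin labelled and hybridised to mouse arrays, per the labels' protocols. The authors deposited log2 signals per probe set. The submitters' processing notes name RMA, without a version. RMA equalises the arrays' distributions, so a change in total RNA cannot be read. Gene names came from GEO's platform annotation, updated through RefSeq (GRCm38.p6).

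The brightest of a gene's single-gene probe sets stood for it, and 12673 genes lay above log2 1.45, the 40th percentile over probe sets. The limma package (3.58.1, R 4.3.3) fitted shRNA, time and array run with 5 residual degrees of freedom, or 3 where each hairpin line had its own slope, with Benjamini-Hochberg adjustment over all genes and a threshold of 0.05. For the run term 0 genes were called by limma (694 at an unadjusted p under 0.05). A second fit covered 27061 probe sets. The scripts were tested on simulated data. Replicate numbers follow deposit order and pair nothing.

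Named genes were the members, list genes past the threshold (at most 4 of largest change per comparison) and the 3 most alike genes per member. Map neighbours were chosen after their values were seen. The members and lists were chosen with earlier results of these data known.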

Additional observations from a re-analysis of the deposited data

Results flagged for a closer look

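Among 54 groups of 4 arrays of 1 line, each with 1 member probe set, 5 held an array that stood far from the other 3 by Dixon's criterion, which chance exceeds in about 5% of groups. The 4 arrays of a line differ in time, so such an array can mark a time point. Etv6 in sh14 was 5.70 at 1 h and 5.04 to 5.14 later. The second Etv6 probe set in scr was 1.83 at 1 h and 1.65 to 1.66 later. The second Gabpa probe set in sh14 was 4.37 at 1 h and 4.01 to 4.06 later. The dimmer Fli1 probe set in sh133 was 2.82 at 6 h and 2.58 to 2.61 at the other times. A dim Ets2 probe set in scr was 2.55 at 12 h and 2.35 to 2.38 at the other times.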

How the results depend on the processing

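Of 728 alternative values of the 42 member results, 645 kept their direction and side of the threshold, 30 lost a call, 16 gained one and 37 changed sign. The falls of Ets1, Ets2 and Etv6 over time passed in all 12 fits that leave out an array, where 3 to 4 members were called. Without the run term, the members called rose from 1 to 5 for both hairpins (Ets1, Ets2, Fli1, Etv6, Elf1) and for sh14 (the same 5 genes), from 1 to 2 for sh133 (Ets1, Fli1), and from 0 to 3 for sh14 against sh133 (Ets1, Ets2, Etv6). Over all genes the counts went from 276 to 2049, 388 to 3003, 622 to 1592 and 1856 to 3132, and for knockdown by time from 48 to 143. With the mean over probe sets, 0 members were called for both hairpins and 0 for sh14, and 159 genes for knockdown by time. With the filter at the 60th percentile, Ets2 was the 1 member called for sh14 against sh133 (-0.44, adjusted p = 0.0471), and 240 genes for knockdown by time. Within run 1 Fli1 was the 1 member called, among 2366 genes. Within run 2, 254 genes were called for sh133. With every probe set on its own, 4034 were called at 22 h and 0 for knockdown by time.

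Leaving out 1 array gave 0 to 1 member calls for both hairpins, for each hairpin and for sh14 against sh133, and 0 for knockdown by time. Over all genes the ranges were 59 to 384, 87 to 555, 135 to 734, 390 to 2206, 1146 to 2273 at 22 h, and 0 to 12. Etv6 was called for sh14 against sh133 without sh133 at 1 or 22 h.

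These uncalled values changed sign, and the cause was not tested. For both hairpins, Gabpa was -0.0326 without the run term, -0.0156 with the mean over probe sets and -0.0714 to 0.104 without an array, and Etv6 -0.0258 to 0.52. For sh14, Gabpa was -0.0016 without the run term and -0.10 to 0.24 without an array, and Fli1 -0.0598 to 0.65. For sh133, Etv6 ran from -0.24 to 0.31, Elf1 from -0.034 to 0.27 and Gabpa from -0.11 to 0.031. For sh14 against sh133, Spi1 ran from -0.20 to 0.10 and Gabpa from -0.0705 to 0.26. At 22 h Spi1 ran from -0.23 to 0.0872. For knockdown by time, Ets2 was -0.0075 without the run term and -0.27 to 0.12 without an array, and Elf1 was -0.0026 with the mean over probe sets and -0.0211 to 0.29. Ets1 ran from -0.15 to 0.30 and Fli1 from -0.0212 to 0.59.

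The median standard error was 0.196 for sh14, 0.13 for sh133 and 0.113 for 22 h, which limits what a missed threshold says. Arrays of the lines were matched by time, which every fit holds as a term. By replicate number, no paired analysis was possible because the labels carry none and the numbers follow deposit order.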

Other observations

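Mast cell marker genes, listed as markers of a related lineage, differed by line. In sh14, 3 of the 7 were higher than in scr, beside 1.5% of all genes. They were Fcer1a, a subunit of the IgE receptor (limma adjusted p = 0.00192), Ms4a2, another subunit of it (1.36 ± 0.24, adjusted p = 0.0162), and Mitf, a transcription factor of mast cells (1.03 ± 0.19, adjusted p = 0.0195). Fcer1a was at 3.58 to 4.55 in sh14 and at 0.98 to 1.54 in scr, mostly below the filter level of 1.45, so it has no exact difference. Its sh133 arrays were all below that level. The sh14 arrays alone carried Fcer1a over the filter, so its filter and call are not independent. The count of 3 includes this call. The other 4 did not pass in sh14 and went in both directions. Hdc, the brightest of the 7, was below scr at every time. It gave 8.31, 7.66, 7.14 and 5.73 in sh14 against 9.47, 8.69, 7.49 and 5.97 in scr. Cma1 was also below scr in sh14 at every time, and Cpa3 was above it. In sh133, 0 of the 7 were higher, beside 2.45% of all genes. Cma1 passed as lower there (adjusted p = 0.0231), with a mean of 1.37 that was below the filter level. Between 1 and 22 h, where 18.1% of all genes were called in either direction, 2 of the 7 rose (Mitf by 0.93 and Cma1 by 0.39). The 3 that fell were Hdc (by 3.29), Ms4a2 (by 1.30) and Cpa3 (by 1.06).

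Alas2, the erythroid enzyme that begins haem synthesis, was 5.43 in scr, 4.36 in sh14 and 6.47 in sh133 on average over 4 arrays each. It was lower in sh14 than in sh133 by -2.49 ± 0.21 (limma adjusted p = 8.04e-05), and it rose by 2.01 between 1 and 22 h over the lines (adjusted p = 8.98e-05). Of the 8 erythroid markers tested, Alas2 was the 1 called between sh14 and sh133. Gata1 (-0.27), Klf1 (-0.23), Kit (-0.23), Rhag (-0.22) and Epor (-0.21) were lower in sh14 without passing. Tfrc (0.23) and Tal1 (0.08) went the other way.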
